A study of Arabidopsis thaliana with 8 samples.

Results

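The comparison described here sets shoot apices of an Arabidopsis thaliana line with an artificial microRNA against PECT1, made under the FD promoter (pFD::amiR-PECT1), against apices of wild type at 16 days of age. It covers 4 of the 8 RNA-seq libraries of the series, 2 of each genotype, and the differences are described across the 17467 of 27655 loci that had at least 1 RPKM (reads per kilobase of exon and M reads) in at least 2 of the 8 libraries. All plants grew on 1/2 MS plates in short days at 23 °C and were taken at ZT 8, and the other 4 libraries hold the same genotypes at 10 days. The 16-day groups are called wild type and knockdown, and their libraries replicates 1 and 2. The labels name 1 knockdown genotype and do not state whether libraries of a group are separate cultures, so p-values here reflect only the spread between these samples, which may be technical.

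PECT1 makes CDP-ethanolamine, from which cells build the membrane lipid phosphatidylethanolamine. FD is a bZIP transcription factor that works with the florigen FT, a protein known to bind phosphatidylcholine, and its promoter is active in the shoot apex rather than in the whole plant. Short days delay flowering in this species, and under them repressors such as the MADS-box factor SVP hold back the floral integrators.

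PECT1 itself was at 40.41 and 41.32 RPKM in wild-type replicates 1 and 2 and at 34.43 and 37.03 RPKM in knockdown replicates 1 and 2. Both knockdown values were lower, but the log2 fold change was -0.19 ± 0.145 (SE) and did not pass the test (limma, Benjamini-Hochberg adjusted p = 0.842). After median-of-ratios scaling the groups overlapped and the log2 fold change was -0.06. FD, which marks cells where the promoter is active, was at 2.38 and 1.74 RPKM in wild-type apices and at 2.49 and 2.57 RPKM in knockdown apices (log2 fold change 0.21 ± 0.247). In bulk apices, fewer cells of a type and less RNA per cell cannot be told apart, and this holds for every gene below.

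Estimated depth over the 8 libraries was 15.46 to 18.16 M reads. Knockdown replicate 1 of day 16 stood apart, with 85.4% of its estimated reads on nuclear genes against 93.1 to 95.7% in the other 7, a mitochondrial sum of 264.4 RPKM against 106.4 to 159.0, and a chloroplast sum of 1816.7 RPKM against 1070.8 to 1581.1. All loci of this library summed to 609036 RPKM, and where its reads outside nuclear genes fell was not tested. The median log2 fold change of all tested genes was -0.113 as deposited and -0.002 after median-of-ratios scaling. It was 0.010 without knockdown replicate 1 and -0.242 without knockdown replicate 2. Pearson r between replicates, across genes on the log2 scale, was 0.978 for wild type and 0.968 for knockdown. STM, the homeobox gene of the shoot meristem, was present, at 12.33 and 12.60 RPKM in wild-type apices and 17.46 and 17.42 RPKM in knockdown apices. This difference did not pass (limma, adjusted p = 0.774). STM had the smallest p of its list of meristem, boundary and polarity genes, where 18 of 28 tested genes had negative log2 fold changes. Of the root markers, 12 of 13 stayed under the filter.

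A gene passed at an adjusted p under 0.05 in limma on log2(RPKM + 1), fitted over all tested genes. At day 16, 20 genes passed, 0.115% of those tested; 4 rose (0.0229%) and 16 fell (0.0916%) in knockdown apices. At an unadjusted p under 0.05, 246 genes were higher (1.41%) and 866 lower (4.96%), and 191 genes had a log2 fold change beyond 1 in either direction. As deposited, 11795 of the 17467 tested genes (67.5%) had a negative log2 fold change. The counts of negative members in the gene lists below are to be read against this share. Apart from a fixed set of genes, members named from a list had its smallest p-values and do not stand for the list. Both knockdown libraries lay above both wild-type libraries for 8.39% of tested genes and below for 25.7%; after median-of-ratios scaling these shares were 17.2% and 18.5%. The count of genes that passed was 11 without wild-type replicate 1, without wild-type replicate 2 or without knockdown replicate 1 (3, 3 and 4 of them higher). It was 12 with quantile normalization (4 higher and 8 lower) and 6 with voom on estimated reads (0 higher and 6 lower).

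**Figure D1:**
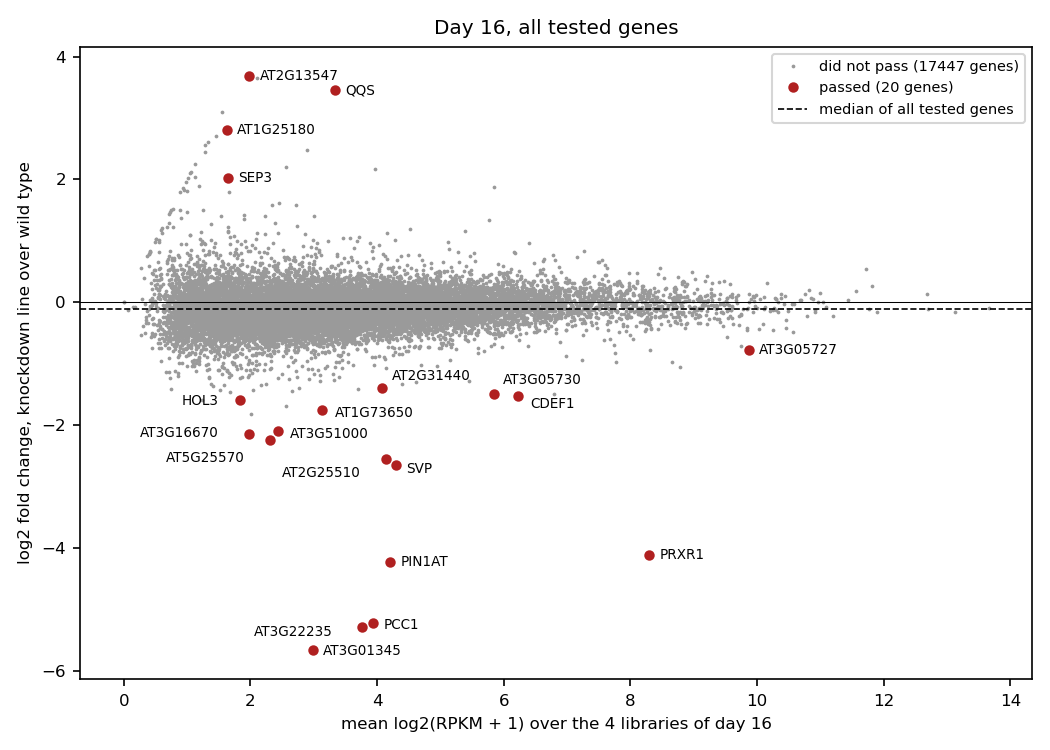
Each point is a gene, placed by its mean log2(RPKM + 1) over the 4 libraries of day 16 (x) and its log2 fold change of knockdown apices over wild type (y); red points passed, grey points did not, and the dashed line is the median of all tested genes at -0.113. The 16 genes that fell include 6 with log2 fold changes from -5.67 to -2.65, and the 4 that rose lie between 2.03 and 3.69.

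Among flowering regulators, SVP (AT2G22540, chromosome 2, 9579647 to 9583901, plus strand, TAIR10.1 annotation) fell and SEP3 (AT1G24260, chromosome 1, 8593536 to 8596123, minus strand) rose. SVP, a MADS-box repressor of flowering, was at 43.14 and 54.15 RPKM in wild-type apices and at 7.08 and 6.67 RPKM in knockdown apices. The groups were far apart, with a log2 fold change of -2.65 ± 0.205 (adjusted p = 0.000446) that passed under each of the 15 alternatives. SEP3, which specifies floral organs, was at 0.75 and 0.37 RPKM in wild-type apices and at 4.48 and 6.28 RPKM in knockdown apices. Its values were low in all 4 libraries, an estimated 17 and 8 reads in wild type against 88 and 145, and the groups did not overlap (log2 fold change 2.03 ± 0.258, adjusted p = 0.0190). The rise of SEP3 passed in 7 of the 15 alternatives, with log2 fold changes from 1.04 to 3.36.

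The other genes of flowering did not pass. SOC1, the integrator that SVP represses, was at 8.92 and 9.55 RPKM in wild-type apices and at 11.91 and 19.33 RPKM in knockdown apices, higher in both libraries but spread between them (log2 fold change 0.66 ± 0.25, adjusted p = 0.745). FT, the florigen, was listed at 0 in wild type and was at 0.07 and 0.28 RPKM in knockdown apices, and AP1, a floral meristem gene, at 0 in 3 of the libraries and 0.09 RPKM in knockdown replicate 2. LFY ranged from 0.23 to 1.00 RPKM with overlapping groups. These levels lie at or under the filter, so no difference was detectable in them at this depth. Of the organ identity genes only 3 of 14 were tested, SEP3, SEP4 and PI, and PI, a petal and stamen factor, was at 0.30 and 0.22 RPKM in wild-type apices and at 0.69 and 1.65 RPKM in knockdown apices (adjusted p = 0.764).

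Of 17 tested floral repressors, 1 (SVP) fell, 0 rose and 13 had negative log2 fold changes, with a median of -0.114 against -0.113 over all tested genes. TEM2, a repressor of FT and of gibberellin synthesis, was at 34.15 and 29.40 RPKM in wild-type apices and 22.34 and 15.41 RPKM in knockdown apices (adjusted p = 0.764). TOE1, an AP2-like repressor, was at 10.16 and 12.15 against 6.90 and 7.82 RPKM (adjusted p = 0.762). Both were lower without overlap, yet neither passed. FLC, the vernalization-dependent repressor, was at 10.83 and 9.02 RPKM in wild-type apices and 11.45 and 13.25 RPKM in knockdown apices, on the opposite side (adjusted p = 0.849). Of 12 tested flowering promoters and integrators 0 passed, with 6 on each side of 0, among them AGL24, the MADS-box relative of SVP that promotes flowering, at 18.62 and 18.13 against 14.72 and 15.21 RPKM.

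Of 13 tested factors of the SPL family, which includes those of the age pathway, 0 passed and 10 had negative log2 fold changes. Their median was -0.235, which was 0.009 without knockdown replicate 1, -0.501 without knockdown replicate 2 and -0.112 after median-of-ratios scaling. SPL13B was at 8.71 and 11.49 RPKM in wild-type apices and 2.41 and 4.11 RPKM in knockdown apices (log2 fold change -1.40 ± 0.289, adjusted p = 0.272). SPL9 was at 3.35 and 4.18 against 1.63 and 1.73 RPKM (-0.83 ± 0.241, adjusted p = 0.595). Both were lower without overlap, whereas SPL13A, a duplicate of SPL13B whose reads may be shared with it, was higher, at 2.99 and 0.96 RPKM in wild-type apices against 3.78 and 4.75 RPKM (adjusted p = 0.764). SPL3 overlapped between the groups, at 13.89 and 26.80 against 13.38 and 17.07 RPKM.

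PCC1 (AT3G22231, chromosome 3, 7845823 to 7846833, minus strand) and the next gene on that strand, AT3G22235 (7854419 to 7855814, minus strand), fell together. PCC1, pathogen and circadian controlled 1, encodes a small cysteine-rich transmembrane protein, and AT3G22235 encodes a member of the same family. PCC1 was at 88.36 and 96.56 RPKM in wild-type apices and at 1.76 and 1.28 RPKM in knockdown apices, a level 60.8-fold lower in the means (log2 fold change on the log2(RPKM + 1) scale -5.22 ± 0.329, adjusted p = 0.000114). AT3G22235 was at 80.90 and 86.37 RPKM in wild-type apices and at 2.16 and 0.48 RPKM in knockdown apices (-5.29 ± 0.374, adjusted p = 0.000266). Both genes were nearly silent in knockdown apices, at an estimated 21 and 18 reads for PCC1 against 1213 and 1282 in wild type. AT3G22240, the third gene of the row and a PCC1-like protein, was at 3.26 and 2.81 RPKM in wild-type apices and 2.19 and 3.1 RPKM in knockdown apices, with overlapping groups (log2 fold change -0.16 ± 0.35).

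The separate values of PCC1 and AT3G22235 are uncertain, as their coding sequences show. Their first 166 bases are identical, and capitals mark what follows, where they differ. The spliced coding sequences are read from the RefSeq genome TAIR10.1 on the minus strand, from the reading frame's first to last base in chr3:7846080-7846563 and chr3:7854696-7855614.
PCC1 coding sequence: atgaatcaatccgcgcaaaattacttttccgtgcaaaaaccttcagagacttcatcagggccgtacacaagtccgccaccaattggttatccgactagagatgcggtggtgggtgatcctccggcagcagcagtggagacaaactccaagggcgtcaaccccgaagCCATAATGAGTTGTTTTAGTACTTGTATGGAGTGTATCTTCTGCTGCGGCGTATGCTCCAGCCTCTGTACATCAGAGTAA
AT3G22235 coding sequence: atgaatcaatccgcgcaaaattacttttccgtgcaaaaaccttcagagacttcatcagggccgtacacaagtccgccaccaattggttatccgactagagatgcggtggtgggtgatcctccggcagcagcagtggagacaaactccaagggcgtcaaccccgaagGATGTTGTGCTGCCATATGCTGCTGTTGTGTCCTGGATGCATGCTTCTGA
The transcripts share 344 bases at 99.4% identity in all, so reads from this stretch could be given to either gene, and the sources used here do not say how the authors' counting treated them. Bases 167 to 246 of PCC1 and 167 to 216 of AT3G22235 tell the genes apart. The transcript of AT3G22235 also matches that of AT3G22240 at 89.7% over 505 bases. Over whole coding sequences PCC1 was 81.5% identical to AT3G22235 and 70.2% to AT3G22240.

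The identity runs on upstream of the annotated starts, and the 250 bases before each start are shown because both genes moved together. Capitals mark the 153 bases that match in a local alignment of the windows, from chr3:7846834-7847083 and chr3:7855815-7856064 (TAIR10.1, minus strand).
PCC1 upstream: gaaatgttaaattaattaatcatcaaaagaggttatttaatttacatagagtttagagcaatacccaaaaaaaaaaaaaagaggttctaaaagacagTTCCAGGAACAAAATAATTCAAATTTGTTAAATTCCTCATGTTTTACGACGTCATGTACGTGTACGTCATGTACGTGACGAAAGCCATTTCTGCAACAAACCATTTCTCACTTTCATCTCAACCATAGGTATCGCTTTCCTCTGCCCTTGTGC
AT3G22235 upstream: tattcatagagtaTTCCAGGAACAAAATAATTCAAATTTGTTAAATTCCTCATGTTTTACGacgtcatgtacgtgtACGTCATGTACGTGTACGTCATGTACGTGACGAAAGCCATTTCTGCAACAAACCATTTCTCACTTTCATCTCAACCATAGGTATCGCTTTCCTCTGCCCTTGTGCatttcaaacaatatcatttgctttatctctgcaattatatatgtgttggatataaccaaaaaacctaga
The alignment spans bases -153 to -1 of PCC1 and -237 to -70 of AT3G22235 and differs only by 15 bases that AT3G22235 has in addition. Whether this sequence bears on either level was not tested.

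PCC1 is known as a gene of pathogen responses, and of 15 tested genes of salicylic acid and systemic immunity 0 passed, while 14 had negative log2 fold changes. Their median was -0.518 against -0.113 over all tested genes, and with 1 library left out it ranged from -0.764 to -0.273. WAK1, a wall-associated kinase, was at 7.52 and 11.15 RPKM in wild-type apices and 1.96 and 5.53 RPKM in knockdown apices (adjusted p = 0.628). WRKY70, a factor of salicylic acid responses, was at 14.86 and 13.34 against 5.45 and 8.54 RPKM (adjusted p = 0.805). Both were lower in both knockdown libraries and lowest in knockdown replicate 1.

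Genes of a peroxidase and of a prolyl isomerase fell by large factors. PRXR1 (AT4G21960, chromosome 4, 11646109 to 11648644, minus strand), a class III peroxidase, was at 1420.24 and 1204.11 RPKM in wild-type apices and at 59.68 and 93.37 RPKM in knockdown apices. Every knockdown value lay far under both wild-type values, and PRXR1 fell 17.1-fold in the means (log2 fold change -4.11 ± 0.193, adjusted p = 1.38e-05). PIN1AT (AT2G18040, chromosome 2, 7841940 to 7843942, plus strand), a parvulin-type prolyl isomerase that is known to act on SOC1 and AGL24 proteins, was at 82.66 and 75.76 RPKM in wild-type apices and 2.98 and 3.62 RPKM in knockdown apices. The groups did not come near each other (24.0-fold, log2 fold change -4.22 ± 0.218, adjusted p = 2.24e-05). PRXR1, PIN1AT, SVP, PCC1, AT3G22235 and AT2G25510 passed under each of the 15 alternatives.

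CDEF1, AT3G05730 and AT3G05727 fell by smaller factors. CDEF1 (AT4G30140), a GDSL-type cutinase, was at 149.49 and 105.04 RPKM in wild-type apices and 36.17 and 51.12 RPKM in knockdown apices (log2 fold change -1.52 ± 0.216, adjusted p = 0.0369). AT3G05730, annotated as a defensin-like protein, was at 80.36 and 114.85 against 32.22 and 34.79 RPKM (-1.49 ± 0.214, adjusted p = 0.0369). Its neighbour AT3G05727, annotated as a pollen coat protein family member, was at 1245.48 and 1197.70 against 678.81 and 743.39 RPKM (-0.78 ± 0.109, adjusted p = 0.0346). The last had the smallest fold change of the 20 and passed in only 3 of the 15 alternatives, while CDEF1 passed in 6 and AT3G05730 in 5. AT3G05730 overlaps the antisense non-coding AT3G01735 by 210 bases, and since the sources used here do not say whether counting used strand, reads of the pair may be mixed.

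AT3G16670, of the Ole e 1 and extensin family, was at 5.99 and 8.77 RPKM in wild-type apices and 1.01 and 0.72 RPKM in knockdown apices (log2 fold change -2.15 ± 0.275, adjusted p = 0.0190, 5 of 15 alternatives). AT3G16660, of the same family and next to it, was at 12.50 and 16.72 against 4.61 and 6.33 RPKM, in the same direction but short of the threshold (-1.27 ± 0.214, adjusted p = 0.114). Their transcripts shared no stretch of at least 100 bases at 90% identity.

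Further genes at lower levels fell. AT3G51000, an alpha/beta hydrolase, was at 8.78 and 11.71 RPKM in wild-type apices and 1.95 and 1.29 RPKM in knockdown apices (log2 fold change -2.10 ± 0.249, adjusted p = 0.0131). AT1G73650, annotated as a steroid dehydrogenase-like protein, was at 16.16 and 14.27 against 3.76 and 3.80 RPKM (-1.76 ± 0.211, adjusted p = 0.0138). HOL3, an S-adenosylmethionine-dependent methyltransferase, was at 5.08 and 5.29 against 1.03 and 1.06 RPKM (-1.60 ± 0.228, adjusted p = 0.0369). In these 3 genes the groups did not overlap, but they passed in 6, 7 and 4 of the 15 alternatives. AT2G31440, a gamma-secretase subunit of the APH1 type, was at 25.70 and 27.15 against 8.57 and 10.26 RPKM (-1.40 ± 0.172, adjusted p = 0.0152), and overlaps ATNTH1 by 75 bases on the same strand. AT5G25570, annotated as a polyamine-modulated factor 1-binding protein, was at 7.94 and 12.05 against 0.87 and 1.82 RPKM (-2.23 ± 0.298, adjusted p = 0.0256). AT2G31440 passed in 9 of the 15 alternatives and AT5G25570 in 5, the latter with an adjusted p of 0.0513 after median-of-ratios scaling.

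The 2 remaining genes that fell have no assigned function in the annotation. AT3G01345 (chromosome 3, 129138 to 130749, plus strand) had 53.13 and 58.07 RPKM in wild-type apices, was listed at 0 in knockdown replicate 1 and had 0.24 RPKM in replicate 2. It was on in wild type and close to off in knockdown apices, with an estimated 1521 and 1608 reads against 0 and 7 (log2 fold change -5.67 ± 0.242, adjusted p = 1.07e-05). No knockdown library of either age exceeded 1.0 RPKM for AT3G01345. The gene met the filter through wild-type libraries, so it could only appear as lower. AT2G25510 (chromosome 2, 10856271 to 10857217, plus strand) was at 34.60 and 50.44 RPKM in wild-type apices and at 6.30 and 6.38 RPKM in knockdown apices (-2.54 ± 0.221, adjusted p = 0.000989).

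The other 3 genes that rose were low or close to silent in wild type. QQS (AT3G30720, chromosome 3, 12349047 to 12349933, plus strand), an orphan gene that affects starch content and is known for heritable epigenetic variation, was at 1.48 and 2.79 RPKM in wild-type apices and at 32.00 and 32.95 RPKM in knockdown apices. It rose 15.2-fold in the means (log2 fold change 3.45 ± 0.273, adjusted p = 0.000474). AT2G13547 (chromosome 2, 5646602 to 5647423, plus strand) was listed at 0 and 0.21 RPKM in wild-type apices and at 10.31 and 16.75 RPKM in knockdown apices (3.69 ± 0.273, adjusted p = 0.000348). AT1G25180 (chromosome 1, 8829564 to 8831390, plus strand) was at 0.37 and 0 RPKM in wild-type apices and at 7.19 and 7.11 RPKM in knockdown apices (2.80 ± 0.255, adjusted p = 0.00140). QQS was low in wild type, while AT2G13547 and AT1G25180 were silent or nearly so there and on in both knockdown libraries. In wild type AT2G13547 and AT1G25180 stayed under 1 RPKM at both ages. They met the filter only through knockdown libraries, so they could only appear as higher. Neither AT2G13547 nor AT1G25180 has an assigned function in the annotation.

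The value of AT1G25180 is uncertain, because its transcript of 1827 bases is 99.7% identical to that of AT1G24851 over its whole length and shares its first 777 bases, without a mismatch, with AT1G25025 and AT1G25112. AT1G24851 was at 0 and 0.56 RPKM in wild-type apices and at 2.03 and 0.58 RPKM in knockdown apices, and both other copies were listed at 0 in all 8 libraries. AT1G25180 also overlaps the non-coding gene AT1G25175 by 119 bases on the same strand, and the authors' deposited table gives AT1G25175 a fold of 40.84 in the same direction.

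**Figure D2:**
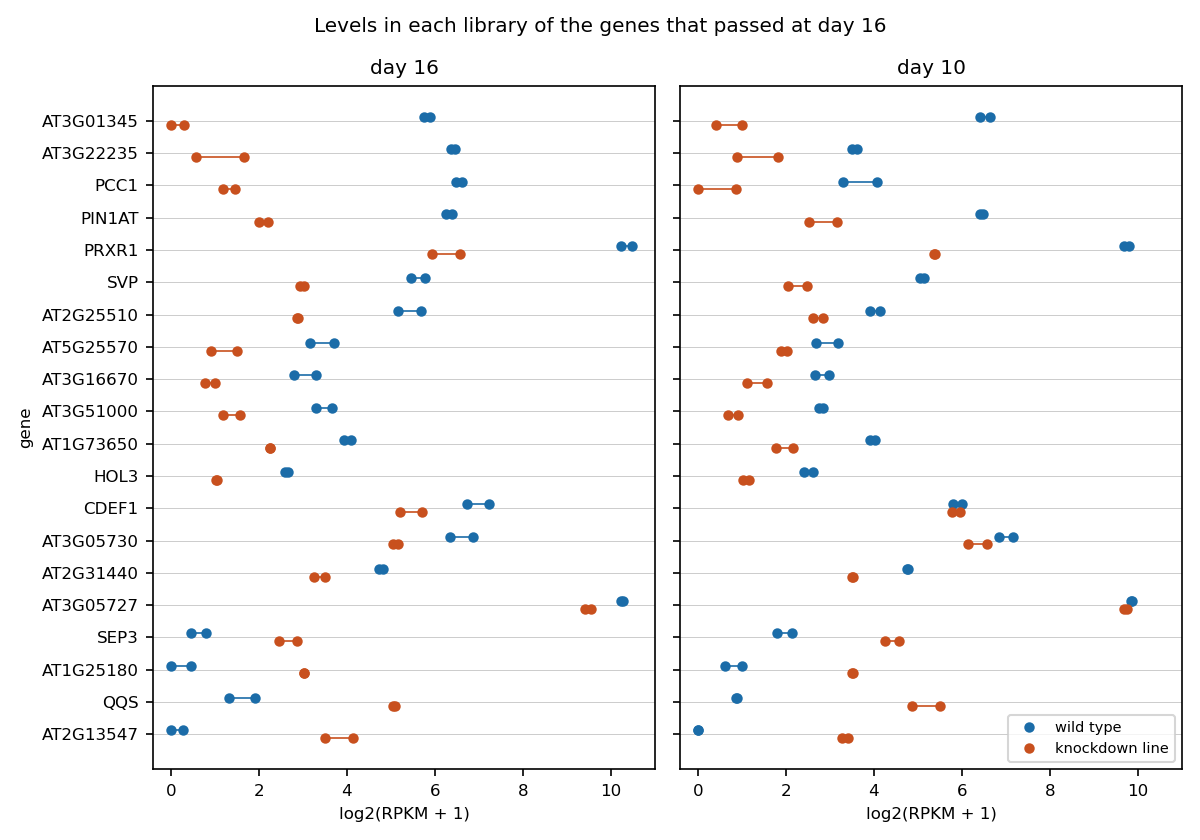
Log2(RPKM + 1) in each library (x) for the 20 genes that passed at day 16 (y), with wild type in blue and knockdown apices in orange, day 16 on the left and day 10 on the right; points joined by a line are the 2 libraries of a group. At day 16 the groups are apart in all 20 genes, and at day 10 they overlap in CDEF1 alone.

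At day 10 the groups were again separate, and in the direction seen at day 16, for 19 of the 20 genes. Over all tested genes 19.9% lay above and 21.0% below at that age, and 12 of the 20 passed at day 10 too, where 13 genes passed in all (0.0744% of those tested). Both ages share the fit's estimate of spread for each gene, so passing at day 10 is not independent of passing at day 16. The exception was CDEF1, at 54.30 and 63.29 RPKM in wild-type apices and 54.00 and 61.37 RPKM in knockdown apices at day 10. PCC1 was at 8.90 and 15.88 RPKM in wild-type apices at day 10, far under its level at day 16, and at 0 and 0.82 RPKM in knockdown apices. SEP3 was higher at day 10 than at day 16 in both genotypes, at 3.37 and 2.48 RPKM in wild-type apices and 22.58 and 18.18 RPKM in knockdown apices.

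The difference between the ages was tested as an interaction in the same fit, and 0 of 17467 genes passed (limma, lowest adjusted p = 0.9997), with 288 at an unadjusted p under 0.05 (1.65%). AT3G22235 had an interaction of -3.08 ± 0.529 on the log2 scale (unadjusted p = 0.00018), CDEF1 -1.50 (unadjusted p = 0.000662) and PCC1 -1.96 (unadjusted p = 0.00189). In all 3 the wild-type level was higher at day 16 than at day 10, and none of these differences holds after adjustment. No gene of the 20 was therefore shown to differ in its response between the ages.

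Genes on either side of those that passed were examined by their order along the chromosome. Of 40 adjacent tested genes 4 passed, being the pairs PCC1 with AT3G22235 (7586 bases apart) and AT3G05727 with AT3G05730 (1016 bases apart), with 0 loci between the genes of either pair. The other 36 had log2 fold changes from -1.27 (AT3G16660) to 0.66, and the median of the 40 was -0.15. At an unadjusted p under 0.05, 9 of the 40 were lower and 0 higher (4.96% and 1.41% of all tested genes). Of the 9, 4 are the genes of the pairs above. Their p was fixed by the choice of genes that passed, so the count of 9 cannot be set against those shares. The others of the 9 were AT3G16660 (-1.27), AT2G13550 (-0.94), AT5G25560 (-0.80), ATNTH1 (-0.68) and AT1G73655 (-0.46), none of which passed. ATNTH1 and AT5G25560 overlap the gene beside them, by 75 bases and by 1 base on the same strand. SVP had neighbours at -0.21 ± 0.289 and -0.16 ± 0.256, and PIN1AT at 0.24 ± 0.2 and 0.66 ± 0.556. Of the 20 genes, 8 lie on chromosome 3 and 6 on chromosome 2, which hold 19.9% and 15.1% of tested genes.

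**Figure D3:**
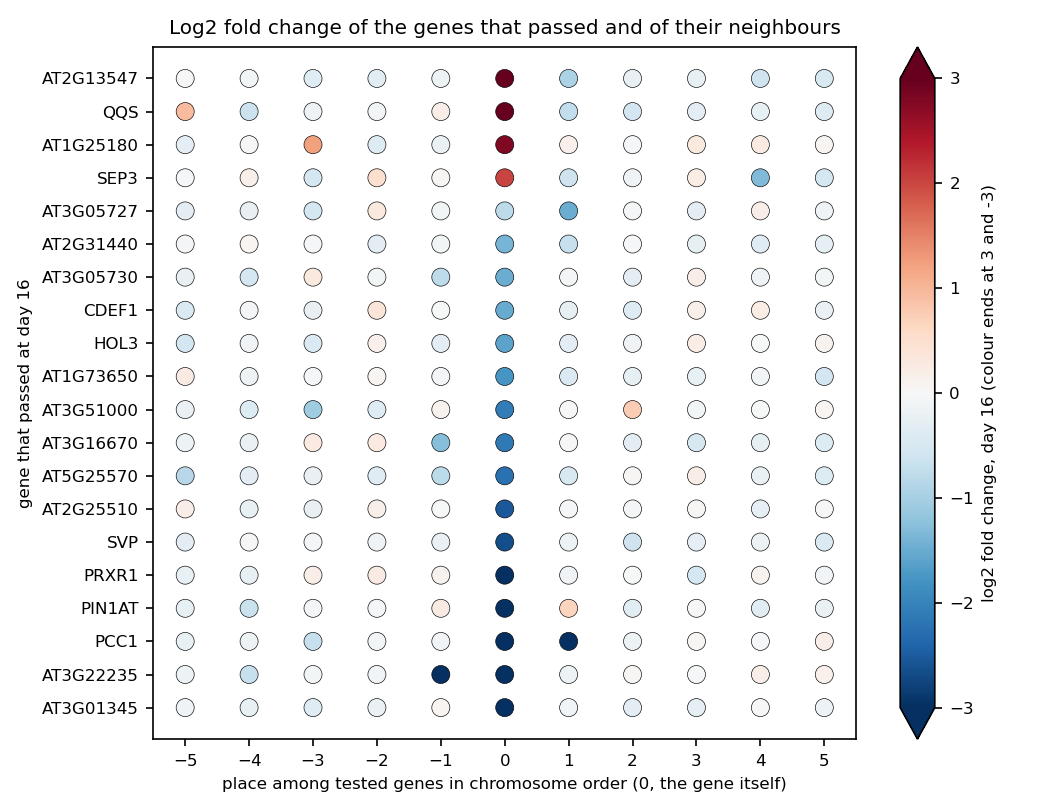
Each row is a gene that passed at day 16, and the columns are the tested genes before and after it in chromosome order, with the gene itself at 0; colour is the log2 fold change, with blue lower and red higher in knockdown apices. Colour ends at 3 and -3. The strongest colours sit in the centre column and in the pair of PCC1 with AT3G22235. Paler blue shows at AT3G05730 beside AT3G05727, AT3G16660 beside AT3G16670 and AT1G24290 near SEP3. It also shows at ZAR1 near AT3G51000 (-1.07) and AT2G13550 beside AT2G13547 (-0.94). Pale red shows at AT1G25141 near AT1G25180 (1.23) and at AT3G30305 in the row of QQS (0.94). AT3G30305 lies 422908 bases from QQS, as columns give order and not distance.

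Of genes that did not pass, the 8 per direction with the smallest p were taken, given separate groups and a mean of at least 5 RPKM. Some of them are described here. RAP2.3, a group VII ethylene response factor, was at 53.77 and 66.01 RPKM in wild-type apices and 110.71 and 124.39 RPKM in knockdown apices (log2 fold change 0.97 ± 0.16, adjusted p = 0.109). GA20OX2, a gibberellin 20-oxidase that makes precursors of active gibberellin, was at 3.28 and 2.35 against 7.92 and 13.56 RPKM (1.59 ± 0.271, adjusted p = 0.121). STR16, a sulfurtransferase, was at 136.13 and 159.42 against 219.79 and 257.96 RPKM (0.69 ± 0.149, adjusted p = 0.289). In the 3 genes both knockdown libraries were higher, also after median-of-ratios scaling. On the lower side, AT5G66250 was at 6.88 and 6.34 against 1.16 and 1.15 RPKM (-1.82 ± 0.277, adjusted p = 0.0580), and AT1G24290 at 6.08 and 6.90 against 1.82 and 2.17 RPKM (-1.32 ± 0.223, adjusted p = 0.114). AT1G24290 is the 4th tested gene after SEP3 on chromosome 1.

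Phospholipid genes, the pathway of the target, showed no member that passed. Of 19 tested genes 13 had negative log2 fold changes, 0 had an unadjusted p under 0.05, and the median of -0.165 ranged from -0.241 to -0.058 with 1 library left out. PSD3, a phosphatidylserine decarboxylase that makes phosphatidylethanolamine by another route, was at 26.80 and 29.56 RPKM in wild-type apices and 18.65 and 23.45 RPKM in knockdown apices (adjusted p = 0.805). PSD1, its mitochondrial counterpart, was at 3.46 and 2.74 against 1.94 and 1.74 RPKM (adjusted p = 0.811). NMT1, the phosphoethanolamine methyltransferase of phosphocholine synthesis, was at 13.11 and 9.13 against 5.34 and 6.37 RPKM (adjusted p = 0.811). In these 3 genes both knockdown libraries were lower, within a spread that the test did not separate. PSD3, PSD1 and NMT1 were named for having among the smallest p of the list, so their shared direction does not stand for it. The share of negative members was near the 67.5% of all tested genes, and the list's median was -0.041 after median-of-ratios scaling.

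Starch genes had 20 of 22 negative log2 fold changes and a median of -0.325, with 0 that passed and 5 lower at an unadjusted p under 0.05 (4.96% of all tested genes). PGM, the plastid phosphoglucomutase of starch synthesis, was at 32.09 and 31.22 RPKM in wild-type apices and 15.37 and 23.09 RPKM in knockdown apices (adjusted p = 0.642). SEX4, a phosphoglucan phosphatase of starch breakdown, was at 24.50 and 21.95 against 12.69 and 17.87 RPKM (adjusted p = 0.687). Both were lowest in knockdown replicate 1, and the median of the list was -0.161 without that library and -0.599 without knockdown replicate 2. Its part in this shift was not tested.

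Genes of cell division had 28 of 32 negative log2 fold changes and a median of -0.273, which was -0.069 without wild-type replicate 1 and -0.477 without wild-type replicate 2. CYCB1;1, a mitotic cyclin, was at 10.61 and 8.32 RPKM in wild-type apices and 5.63 and 5.30 RPKM in knockdown apices (adjusted p = 0.678). CDC20.1, an activator of the anaphase-promoting complex, was at 29.43 and 20.81 against 13.11 and 14.21 RPKM (adjusted p = 0.687). Both were lower without overlap, as were 13 of the 32 (25.7% of all tested genes), and 0 passed. Flavonoid genes had 13 of 15 negative log2 fold changes and a median of -0.420, which was -0.166 without wild-type replicate 1 and -0.457 without wild-type replicate 2. DFR, an enzyme of anthocyanin synthesis, was at 4.82 and 1.99 against 1.32 and 0.80 RPKM, with wild-type replicate 1 far above replicate 2 (adjusted p = 0.668).

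Gibberellin genes had 12 of 22 positive and a median of 0.011, which was 0.185 without knockdown replicate 1 and -0.240 without knockdown replicate 2. GASA6, a gibberellin-regulated peptide gene, was at 151.92 and 136.36 RPKM in wild-type apices and 246.51 and 210.05 RPKM in knockdown apices (log2 fold change 0.66 ± 0.169, adjusted p = 0.474). Auxin genes had 13 of 18 positive and a median of 0.211, which turned to -0.082 without knockdown replicate 2 and to -0.135 without wild-type replicate 1. Clock genes had 17 of 23 negative and a median of -0.219, which was -0.076 without knockdown replicate 1, with PRR5, a pseudo-response regulator of the clock, at 27.43 and 17.80 against 12.65 and 16.58 RPKM (adjusted p = 0.762). Genes of DNA methylation and small RNA had 19 of 22 negative and a median of -0.240, which was 0.013 without knockdown replicate 1 and -0.493 without knockdown replicate 2. No member of these 4 lists passed.

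In the glucosinolate list 0 of 25 passed and the median of 0.105 became 0.374 without knockdown replicate 1 and -0.244 without knockdown replicate 2. The myrosinases TGG1 and TGG2, which break glucosinolates down, had the smallest p-values of the list. TGG1 was at 467.62 and 370.78 RPKM in wild-type apices and 202.95 and 288.90 RPKM in knockdown apices (-0.78 ± 0.182, adjusted p = 0.403). TGG2 was at 244.77 and 175.74 against 90.40 and 127.50 RPKM (-0.94 ± 0.199, adjusted p = 0.278). In both, all knockdown values lay under all wild-type values. The jasmonate list split by library, with a median of 0.033 that became 0.969 without knockdown replicate 1 and -0.973 without knockdown replicate 2, and no member had separate groups. JAZ9, a jasmonate repressor, was at 27.70 and 25.26 RPKM in wild-type apices and at 21.83 and 58.54 RPKM in knockdown apices.

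The remaining lists of pathways had 0 genes that passed. Of the tested genes 13 of 18 were negative in ethylene and group VII ERFs (median -0.056), 6 of 11 in cytokinin response (-0.148), 12 of 21 in abscisic acid, cold and drought (-0.024), 4 of 13 in phosphate starvation (0.115), 8 of 15 in heat shock (-0.048), 5 of 17 in endoplasmic reticulum folding (0.070), 15 of 16 in touch and rapid stress response (-0.245) and 18 of 28 in shoot meristem, boundary and polarity (-0.080). Leaving out 1 library at a time moved these medians from -0.215 to 0.158 for ethylene, -0.224 to 0.119 for cytokinin, -0.217 to 0.571 for abscisic acid, -0.177 to 0.313 for phosphate starvation, -0.075 to 0.186 for heat shock, -0.096 to 0.161 for endoplasmic reticulum folding and -0.141 to 0.035 for shoot meristem, so that each took both signs. The median of touch response stayed negative, from -0.650 to -0.058.

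**Figure D4:**
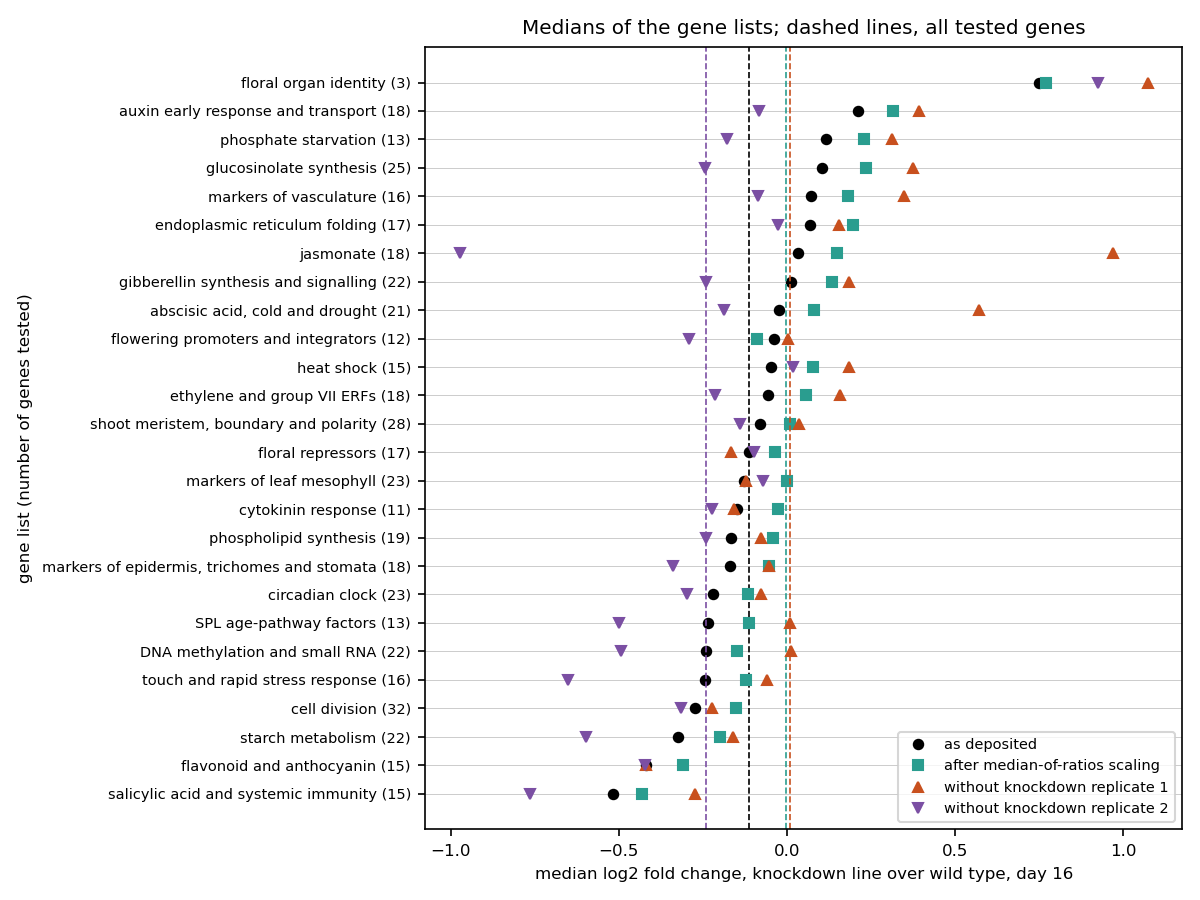
Median log2 fold change of knockdown apices over wild type at day 16 (x) for each gene list with at least 3 tested genes (y), as deposited (circles), after median-of-ratios scaling (squares), and without knockdown replicate 1 or 2 (triangles up and down); dashed lines give the same medians over all tested genes. The jasmonate list lies at 0.969 without knockdown replicate 1 and at -0.973 without knockdown replicate 2, while the flavonoid list lies between -0.310 and -0.423 in the settings drawn and at -0.166 without wild-type replicate 1, which is not drawn.

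Markers of the cell types that a dissected apex can hold were read in the same way. Leaf mesophyll markers, antenna proteins and Rubisco subunits among them, summed to 57468 and 49226 RPKM in wild-type apices and 48999 and 48965 RPKM in knockdown apices, with 18 of 23 negative and 0 that passed. Their median was -0.129, against -0.113 over all tested genes, and 0.001 after median-of-ratios scaling. RBCS2B, a Rubisco small subunit with the smallest p of the list, was at 1142.30 and 1072.91 against 558.96 and 807.43 RPKM (adjusted p = 0.445). Vasculature markers summed to 350.0 and 342.0 RPKM in wild-type apices and 336.0 and 475.0 RPKM in knockdown apices, 13 of 16 positive, with SWEET12, a phloem sucrose exporter, at 6.11 and 7.74 against 10.28 and 11.46 RPKM (adjusted p = 0.764). Epidermis, trichome and stomata markers had 16 of 18 negative and sums of 2927 and 2636 against 2774 and 2708 RPKM. Root markers summed to 2.42 and 3.53 against 1.47 and 2.41 RPKM, and 6 of 13 were listed at 0 in all 4 libraries. The sums of vasculature and epidermis overlapped between the genotypes, while those of mesophyll and root lay lower in both knockdown libraries, with mesophyll group means closer together than the wild-type libraries were. The part of cell composition in the changes of SVP, PRXR1 or PCC1 was not tested.

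Several transcripts known from seeds were named through the authors' deposited table of higher genes or their small p, so that their direction was fixed by that choice, and none of them passed. They are described by library. LEA18, a late embryogenesis abundant protein, was listed at 0 in wild type and reached 6.43 and 8.86 RPKM in knockdown replicates 1 and 2. OLEO1, the oil body protein oleosin, was listed at 0 in wild type and at 0.21 and 9.83 RPKM. ICL, isocitrate lyase of the glyoxylate cycle, was at 0 and 0.03 RPKM in wild-type apices and at 2.51 and 9.85 RPKM. Each was higher in knockdown apices and highest in its replicate 2 (adjusted p = 0.595, 0.811 and 0.432). M17, an embryo-abundant protein gene, was at 0.28 and 16.84 RPKM in knockdown replicates 1 and 2 and listed at 0 in wild type. RAB18, a dehydrin of abscisic acid responses, was at 7.08 and 5.77 RPKM in wild-type apices and at 30.11 and 34.34 RPKM in knockdown apices, even between its libraries (log2 fold change 2.16 ± 0.676, adjusted p = 0.642). At day 10 the same transcripts were high in knockdown replicate 1 and not in replicate 2, with LEA18 at 14.38 and 0.09 RPKM, OLEO1 at 7.38 and 0, and RAB18 at 36.24 and 4.08.

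**Figure D5:**
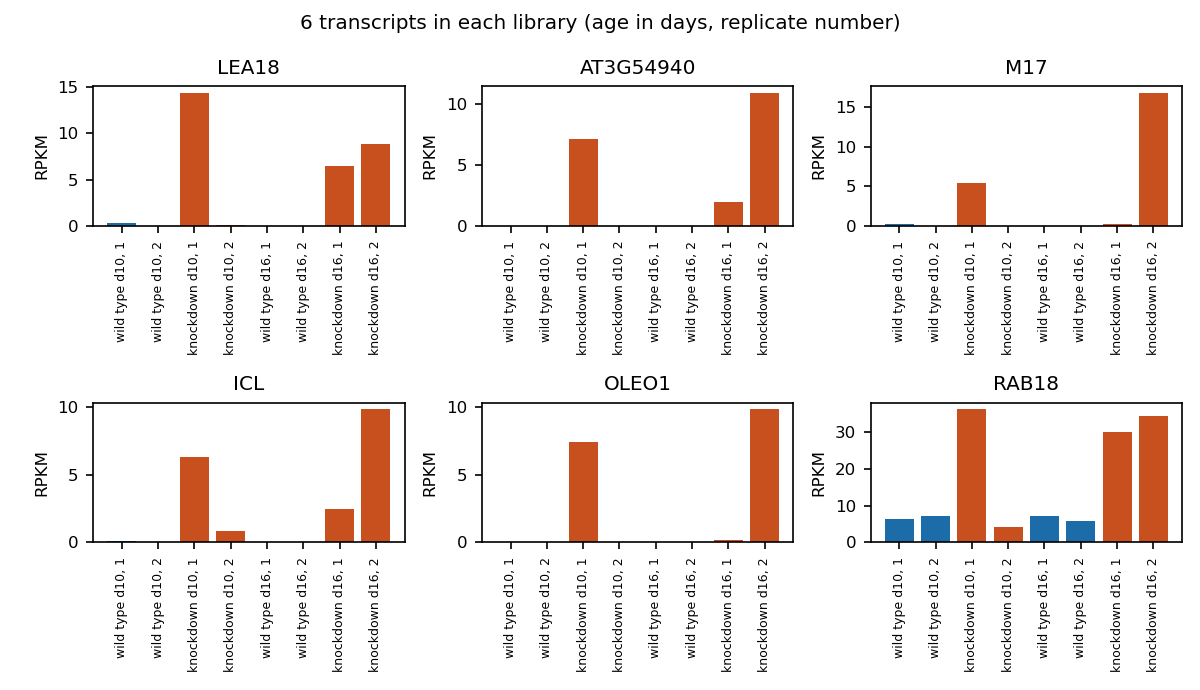
RPKM (y, linear scale from 0) of LEA18, AT3G54940, M17, ICL, OLEO1 and RAB18 in each of the 8 libraries (x), with wild type in blue and knockdown apices in orange; a bar is 1 library. In all 6 genes knockdown replicate 1 of day 10 and knockdown replicate 2 of day 16 are high, and knockdown replicate 2 of day 10 stands under 5 RPKM.

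The authors deposited their own tables of genes changed at day 16, with 209 loci higher and 213 lower in knockdown apices at a fold of at least 2. Organelle loci make up 24 of the 209 higher and 0 of the 213 lower loci, against 210 of all 27655 loci with values. The part of the high organelle sums of knockdown replicate 1 in this was not tested. Of the 20 genes that passed, 14 are in these tables, 11 among the lower and 3 among the higher. The 6 outside them are AT5G25570, AT1G73650, CDEF1, AT3G05730, AT3G05727 and AT1G25180. Of the loci in the authors' deposited tables that were tested, 135 of 151 higher and 161 of 166 lower had the same sign here. The authors chose these loci for their direction in the same series, so the shared sign was largely fixed by that choice. Of all tested genes, 67.5% had a negative log2 fold change. In the authors' deposited table SVP has a fold of -6.42, QQS 16.77 and SEP3 10.37.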

How the data were processed

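RNA of shoot apices was sequenced in 8 libraries (NEBNext directional kit, per the labels' protocols). The authors deposited RPKM values per locus, so called per the file headers although the file's own name says RPM. TAIR10 is the build in the submitters' processing notes, with aligner, counting tool and strand setting not given in the sources used here. For day 16, the authors' deposited tables hold a linear fold ratio (higher genes) or a fold with a minus sign (lower genes, used as a score) and a p-value per locus. Low RPKM values fall on steps of 1 read, from which depth was estimated; at least 98.8% of those examined lay within 0.1 of a whole read.

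limma 3.58.1 (R 4.3.3) with an intensity trend was fitted on log2(RPKM + 1) over 8 libraries and 4 group means, without a block, and tested on simulated data. Loci reaching 1 RPKM in 2 or more libraries were tested, two-sided, with Benjamini-Hochberg adjustment and a threshold of 0.05. Fold changes on this scale understate the change of low genes. Positions and sequences came from RefSeq TAIR10.1, which matched 27445 of 27655 loci. Near-identical transcripts were searched with blastn 2.17.0 (at least 100 bases at 90% identity), and sequences aligned with Biopython 1.88. The comparison, the 27 gene lists and the tests were chosen with earlier results of these data known; of 598 listed loci 14 were left out for a symbol mismatch with the annotation, 8 of them lipid genes (CEK1 to CEK4, NMT2, NMT3, LPEAT1 and LPEAT2). The rule for naming took the genes that passed, the 8 per direction with the smallest p that did not, and fixed flowering genes. It also took up to 4 members per list, those with the smallest p, and interaction genes, 6 per authors' table, and neighbours. The text describes some of them. Alternatives were pseudocounts of 0.25 and 4, other filters and scalings, voom, a replicate block and leaving out each library.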

Additional observations from a re-analysis of the deposited data

How the results depend on the processing

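Of the 20 genes that passed, 20 still passed with a pseudocount of 0.25 and 19 with 4, 18 after rescaling to nuclear genes, 16 with a filter at 5 RPKM, 15 in a fit of the 4 libraries of day 16 alone, 14 after median-of-ratios scaling, 12 after quantile normalization, 11 with no filter and 6 with voom. The direction of all 20 held in each of these settings. The total count was 11 with no filter on low values, 12 with quantile normalization, 6 with voom, and 11 to 14 leaving out 1 library. With median-of-ratios scaling and knockdown replicate 1 left out together, chosen after seeing the data, it was 9. The interaction had 0 genes in every setting.

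Same-numbered libraries did not deviate together in all groups (correlations of -0.239 to 0.329, and 0.303 between wild type and knockdown line at day 16), so the numbers were not taken to pair samples; with the replicate block 24 genes passed and the interaction had 0.

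Among named genes that did not pass, some log2 fold changes changed sign. After median-of-ratios scaling these were SEP4 (0.02), EIL1 (0.00) and AT4G02725 (0.12), the last also after rescaling to nuclear genes (0.07) and with voom (0.08). Quantile normalization gave 0.10 for SEP4, 0.06 for AT4G02725 and 0.00 for UBP22. Scaling with knockdown replicate 1 left out gave 1.03 for MYC2, 0.01 for PHR1, 0.02 for IRE1B, 0.08 for AT4G02725 and 0.16 for UBP22. Leaving out 1 library at a time, the range was -0.79 to 0.11 for SPL3, -0.15 to 0.31 for SPL4, -0.17 to 0.03 for SEP4, -0.27 to 1.12 for JAZ9, -3.11 to 1.04 for MYC2, -0.32 to 0.83 for VSP1, -0.97 to 0.15 for KIN2, -0.70 to 0.02 for PHR1, -0.77 to 0.03 for IRE1B, -0.08 to 0.47 for SULTR2;1, -0.45 to 0.68 for BCAT4, -0.09 to 0.09 for AT4G02725, -0.20 to 0.56 for AT3G21360 and -0.45 to 0.17 for UBP22. The cause was not tested. RAP2.3 passed after rescaling to nuclear genes (adjusted p = 0.0457), LEA18, RAB18 and AT5G66250 in the fit of day 16 alone (0.00144, 0.00521 and 0.0422), and AT3G53980 and AT5G66250 with the replicate block (0.0159 and 0.0368). Depth limits what can be said of genes under about 1 RPKM, such as FT, AP1 and LFY.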

Other observations

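Some loci in the authors' deposited tables had overlapping groups in the deposited RPKM values. Whether the authors computed a fold per locus or per transcript is not stated in the sources, so folds from the authors' deposited tables and RPKM values per locus may not measure the same quantity. AT4G02725 has a fold of 998.82 in the authors' deposited table of higher genes and was at 27.46 and 31.16 RPKM in wild-type apices and 27.49 and 31.11 RPKM in knockdown apices. AT3G21360 has a fold of 906.64 there and was at 3.17 and 6.08 against 4.33 and 6.10 RPKM. UBP22 has a fold of -13.72 in the authors' deposited table of lower genes and was at 5.82 and 5.36 against 3.83 and 6.39 RPKM. In these 3 loci the groups overlapped. Of the loci whose mean reached 5 RPKM in either group, 10 of 74 in the higher table and 15 of 66 in the lower table had group means within 1.2-fold of each other. The cause was not tested.

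In the authors' deposited table of higher genes, 17 loci were at least 10-fold higher in knockdown replicate 2 than in knockdown replicate 1, with 0.1 RPKM added to both values, and 2 the other way. In the table of lower genes there were 0 of either kind. Loci of that table were chosen for lower knockdown values, which leaves less room for such a gap, so these counts do not compare the tables.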
